A study of Mus musculus with 8 samples.

Results

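Amhr2, the receptor gene for anti-Müllerian hormone, and 7 genes used to mark the mesothelium that covers the lung were followed through 8 libraries of whole mouse lung RNA. The 8 members were taken by gene symbol (Amhr2, Msln, Upk3b, Upk1b, Wt1, Lrrn4, Krt19 and Gpm6a), and all 8 were found among the 15960 genes listed. The tested mice, BHLKO, carried Alb-Cre together with loxP-flanked alleles written Hif1_alpha fl/fl and Bmal1fl/fl, and 4 libraries came from them. The controls carried Alb-Cre alone, also with 4 libraries. Both groups were C57BL/6 mice 3 to 5 months old, fed freely, kept for 2 weeks in 12 h of light and 12 h of dark, left without the morning light on the day of collection and taken at circadian time 16 h. The Alb promoter drives Cre in hepatocytes, so the deletion was directed to the liver, and lung RNA was read in an organ that the driver does not target. Mice with the floxed alleles and no Cre were not analysed here.

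The mesothelium is a single sheet of flattened cells on the outer surface of the lung, the visceral pleura, where it makes a lubricated surface and shares keratins with epithelia. It derives from the lining of the embryonic body cavity, as do the surface cells of the gonads. AMHR2 is the type II receptor that binds anti-Müllerian hormone. It is a serine/threonine kinase that pairs with the type I receptors ACVR1, BMPR1A or BMPR1B and acts through SMAD1, SMAD5 and SMAD9. Its best known task is the regression of the Müllerian ducts in male fetuses, and in adults it is best known from the ovary and testis. The question of the comparison is whether the lower Amhr2 in BHLKO lung came with lower levels of other genes of the pleural mesothelium.

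The start regions of Amhr2, the member that fell, and of Upk3b, a member whose group means were close, are shown for comparison. RefSeq windows from 250 bases before to 50 bases after the annotated start could be matched for 4 of the 8 members. Capitals mark the motifs found, and both runs read 5′ to 3′ on the plus strand of GRCm38.p6, at chr15:102445117-102445416 for Amhr2 and chr5:136038246-136038545 for Upk3b.
Amhr2: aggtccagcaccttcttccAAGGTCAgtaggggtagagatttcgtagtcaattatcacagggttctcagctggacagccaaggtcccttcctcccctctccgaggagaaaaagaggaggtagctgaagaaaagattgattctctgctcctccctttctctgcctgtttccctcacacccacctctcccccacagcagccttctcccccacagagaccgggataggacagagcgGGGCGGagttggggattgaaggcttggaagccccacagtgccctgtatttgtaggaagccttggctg
Upk3b: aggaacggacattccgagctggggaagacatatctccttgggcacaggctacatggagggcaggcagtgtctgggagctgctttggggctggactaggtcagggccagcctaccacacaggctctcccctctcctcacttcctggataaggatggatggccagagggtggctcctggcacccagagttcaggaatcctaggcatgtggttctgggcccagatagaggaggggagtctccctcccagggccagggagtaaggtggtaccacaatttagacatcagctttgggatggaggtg

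The windows were searched on both strands for the E-box CACGTG, which BMAL1 binds with its partner CLOCK. The core of hypoxia response elements, ACGTG, is contained in it and was searched as well. Also searched were a site of the gonadal nuclear receptor NR5A1, AAGGTCA, the GC box of SP1, GGGCGG, and a motif of WT1, GCGTGGGAG. The Amhr2 window held AAGGTCA at position -231 from the start and GGGCGG at position -17, and none of the other motifs. The Upk3b window held no match. Among 32851 RefSeq windows of this length, AAGGTCA was in 4.72%, GGGCGG in 35.7%, CACGTG in 7.15%, ACGTG in 19.6% and GCGTGGGAG in 0.472%. These matches describe letters in the windows and were not measured as binding.

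Total counts per library lay between 6838427 and 15430372. The edgeR quasi-likelihood test was run on 13517 genes and called 306 of them at a Benjamini-Hochberg adjusted p under 0.05, 140 higher and 166 lower in BHLKO. An unadjusted p under 0.05 in edgeR was found for 2180 of the 13517, the background for such counts below. Arntl, the gene of BMAL1, averaged 7.6 ± 2.5 CPM (counts per 1e6 counts of the library) in BHLKO and 6.54 ± 1.37 CPM in Alb-Cre lung, and Hif1a averaged 13.5 ± 1.38 CPM in BHLKO and 12.8 ± 1.95 CPM in Alb-Cre lung (SD, n = 4 each). Neither passed the test, and counts over whole genes from lung do not check a deletion made in hepatocytes. The labels do not say that each library is a separate animal, so p-values reflect library-to-library spread, which may be technical. Libraries differed in markers of tissues other than alveolar lung. The summed level of 6 adipocyte markers was 320, 465, 523 and 1020 CPM in BHLKO libraries 2, 3, 4 and 5, against 2144, 188, 1552 and 275 CPM in Alb-Cre libraries 1, 2, 4 and 5. None of the 6 markers was called by edgeR, DESeq2 or limma-voom, and 0 had an unadjusted p under 0.05 in edgeR. The 6 cardiac muscle markers all had log2 fold changes above 0, with a median of 0.92 and 3 at an unadjusted p under 0.05 in edgeR; edgeR and limma-voom called 0 and DESeq2 called Actc1. Their sum ran from 1431 to 4365 CPM in BHLKO and from 884 to 1980 CPM in Alb-Cre lung. The 5 tested of 6 squamous and basal markers all had log2 fold changes below 0, with a median of -1.10 and 0 at an unadjusted p under 0.05 in edgeR, and edgeR, DESeq2 and limma-voom called 0. Their sum ran from 4.90 to 28.4 CPM in BHLKO and from 21.04 to 118 CPM in Alb-Cre lung. The part of these tissues in the members' values was not tested. Alb-Cre libraries 1 and 4 were the richest in adipocyte RNA, and values without both are given for the members whose direction they change. For other genes the fold changes without both are not given here.

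Amhr2 fell in BHLKO lung, and none of the 7 mesothelial markers passed the test. Amhr2 was 4.33-fold lower in BHLKO, whereas the log2 fold changes of the other 7 members lay between -0.55 and 0.20 with a median of -0.05. Of the 8 members, 1 was called, against a background of 2.26% of all tested genes called in either direction and 1.23% called lower. The same 1 of 8 had group values that did not overlap, against 4.99% of tested genes not overlapping and lower in BHLKO. Amhr2 was selected on its counts in this contrast and the others were set beside it as mesothelial genes, so the members' counts are a description and no p is given for any of them. In whole tissue, fewer cells of a type and less RNA per cell cannot be told apart.

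**Figure D1:**
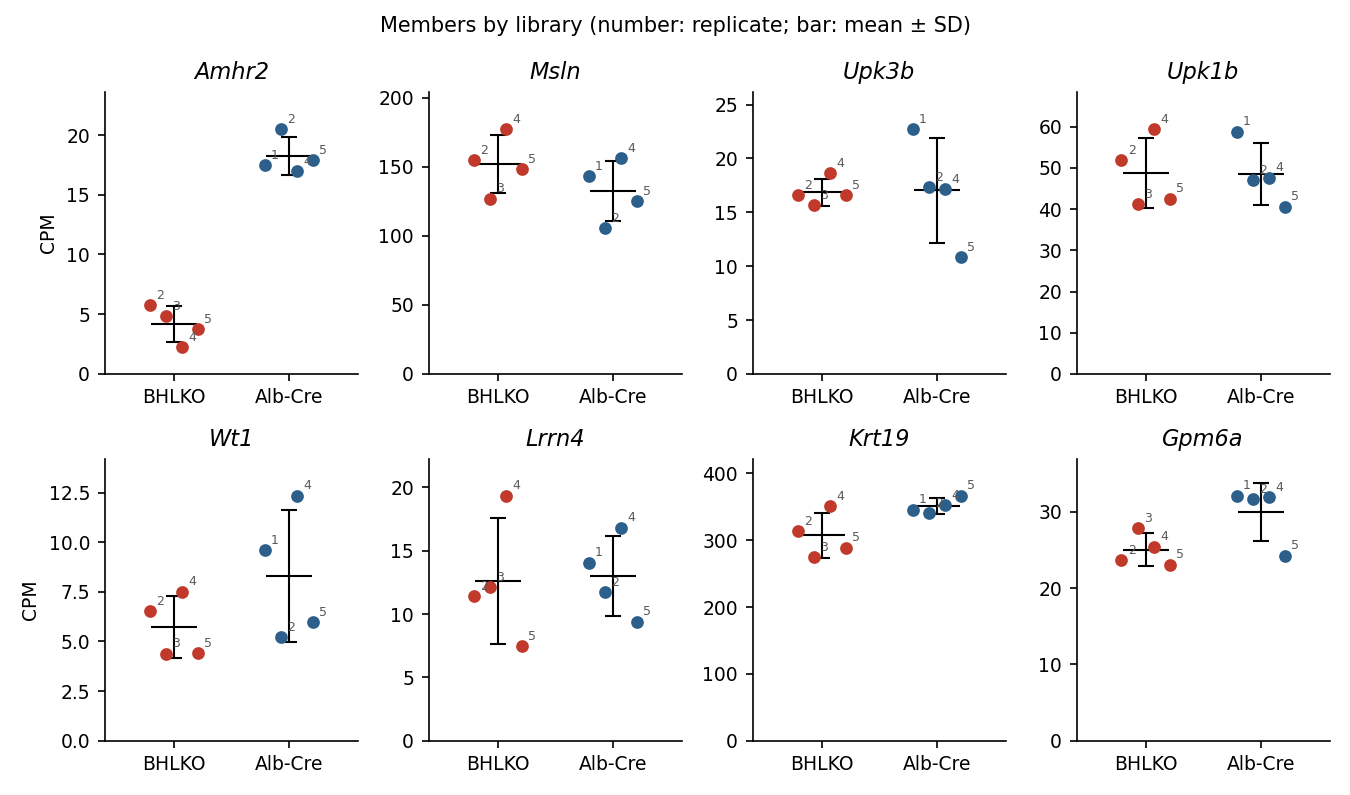
CPM of the 8 members (vertical axes, each starting at 0) in 4 BHLKO and 4 Alb-Cre libraries, with the replicate number beside each point and the mean ± SD as bars. The Amhr2 points lie between 2.26 and 5.79 CPM in BHLKO and between 17.0 and 20.5 CPM in Alb-Cre lung, while the points of the other 7 members overlap between the groups.

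Amhr2 (ENSMUSG00000023047.11; mm10 chromosome 15, 102445367 to 102454633, plus strand) had 71, 56, 22 and 44 reads in BHLKO libraries 2, 3, 4 and 5, against 235, 142, 198 and 270 reads in Alb-Cre libraries 1, 2, 4 and 5. Scaled to depth, its level was 5.79, 4.82, 2.26 and 3.74 CPM in these BHLKO libraries, against 17.5, 20.5, 17.0 and 17.9 CPM in the Alb-Cre libraries. Every BHLKO library was below every Alb-Cre library. The means were 4.15 ± 1.51 CPM in BHLKO and 18.2 ± 1.58 CPM in Alb-Cre lung (SD, n = 4 each), a log2 fold change of -2.12 ± 0.24 (SE; 95% interval -2.62 to -1.61). Expressed as a share of the Alb-Cre mean, the BHLKO libraries stood at 31.8, 26.4, 12.4 and 20.5%. Replicate 4 was the lowest. Its 22 reads have an exact Poisson interval of 13.8 to 33.3 reads and the 71 reads of replicate 2 have one of 55.5 to 89.6, so these 2 libraries differed by more than counting error, which is all that such intervals cover. The SDs of the groups were close in CPM, but relative to the mean the spread was 36.4% in BHLKO and 8.68% in Alb-Cre lung.

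Among all 13517 tested genes Amhr2 held rank 29 counted from the lowest log2 fold change, and rank 16 among the 166 called falls. Leaving out any 1 of the 8 libraries gave log2 fold changes between -2.32 and -1.92, and Amhr2 was called in all 8 of these fits. Such fits reuse the counts that selected Amhr2, so they describe its dependence on single libraries only. No annotated gene overlaps Amhr2. The nearest listed neighbours on chromosome 15 had differences close to 0: Sp1, which encodes the transcription factor SP1 and ends 8963 bases before Amhr2, had a log2 fold change of -0.16 (edgeR adjusted p = 0.544), and Prr13, which begins 4395 bases after it, had -0.02 (edgeR adjusted p = 0.954). Of the 4 listed genes on each side, 6 were tested and edgeR, DESeq2 and limma-voom called none, with none at an unadjusted p under 0.05 in edgeR.

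Msln encodes mesothelin, an anchored surface protein that binds the mucin MUC16 and is the most widely used mesothelial marker of the set. Its level was 155, 127, 178 and 149 CPM in the BHLKO libraries, against 143, 106, 156 and 125 CPM in the Alb-Cre libraries. The group ranges overlapped, with means of 152 ± 20.8 CPM in BHLKO and 133 ± 22 CPM in Alb-Cre lung (SD, n = 4 each) and a log2 fold change of 0.20 ± 0.12 (95% interval -0.07 to 0.46). The lower bound of that interval lies far above the -1.61 that bounds the fall of Amhr2.

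The uroplakins Upk1b and Upk3b encode membrane proteins first known from the plaques of the bladder lining and are also made by mesothelium. Upk3b stood at 16.6, 15.7, 18.6 and 16.6 CPM in BHLKO, against 22.8, 17.3, 17.2 and 10.9 CPM in Alb-Cre lung. Its means were 16.9 ± 1.25 CPM in BHLKO and 17 ± 4.86 CPM in Alb-Cre lung, with a log2 fold change of -0.01 ± 0.19 (95% interval -0.42 to 0.40). The BHLKO libraries all lay inside the wider Alb-Cre range. Upk1b, a tetraspanin, stood at 51.9, 41.1, 59.5 and 42.5 CPM in BHLKO, against 58.8, 47.0, 47.6 and 40.6 CPM in Alb-Cre lung. Its means were 48.8 ± 8.61 CPM in BHLKO and 48.5 ± 7.57 CPM in Alb-Cre lung, with a log2 fold change of 0.01 ± 0.14 (95% interval -0.29 to 0.30).

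Wt1 encodes a zinc-finger transcription factor of the mesothelium and of the developing gonad and kidney. It had 6.52, 4.39, 7.52 and 4.42 CPM in BHLKO, against 9.59, 5.20, 12.4 and 5.96 CPM in Alb-Cre lung. The high values of the Alb-Cre group belonged to libraries 1 and 4, the ones rich in adipocyte markers, while libraries 2 and 5 lay within the BHLKO range. The means were 5.71 ± 1.56 CPM in BHLKO and 8.28 ± 3.33 CPM in Alb-Cre lung, with a log2 fold change of -0.55 ± 0.29 (95% interval -1.17 to 0.07), the lowest of the 7. Without Alb-Cre libraries 1 and 4, a choice made after seeing the data, the log2 fold change of Wt1 was 0.02, whereas that of Amhr2 was -2.19.

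Lrrn4 encodes a leucine-rich repeat membrane protein. It had 11.4, 12.1, 19.4 and 7.49 CPM in BHLKO, against 14.1, 11.7, 16.8 and 9.40 CPM in Alb-Cre lung, with a log2 fold change of -0.05 ± 0.26 (95% interval -0.61 to 0.50). The highest Lrrn4 value was that of BHLKO library 4, the library with the least Amhr2.

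Krt19, a keratin of simple epithelia that airway cells also make, had 314, 275, 351 and 289 CPM in BHLKO, against 346, 340, 352 and 367 CPM in Alb-Cre lung. Its means were 307 ± 33.5 CPM in BHLKO and 351 ± 11.4 CPM in Alb-Cre lung, with a log2 fold change of -0.19 ± 0.09 (95% interval -0.39 to 0.00). Only BHLKO library 4 reached into the Alb-Cre range. Of 6 airway secretory markers edgeR, DESeq2 and limma-voom called 0. In edgeR 1 of the 6 had an unadjusted p under 0.05, beside 2180 of all 13517 tested genes. The sum of the 6 ran from 41819 to 57092 CPM in BHLKO and from 42767 to 61838 CPM in Alb-Cre lung. The part of airway cells in the Krt19 values was not tested. Gpm6a encodes a membrane glycoprotein best known from neurons. It had 23.6, 27.9, 25.4 and 23.1 CPM in BHLKO, against 32.1, 31.7, 31.9 and 24.2 CPM in Alb-Cre lung, and a log2 fold change of -0.26 ± 0.13 (95% interval -0.54 to 0.02). A single Alb-Cre library, number 5, lay inside the BHLKO range of Gpm6a. For these 7 members edgeR, DESeq2 and limma-voom each called 0, edgeR had 0 at an unadjusted p under 0.05, and 2 log2 fold changes were above 0 and 5 below, beside a median of -0.0017 over all tested genes.

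**Figure D2:**
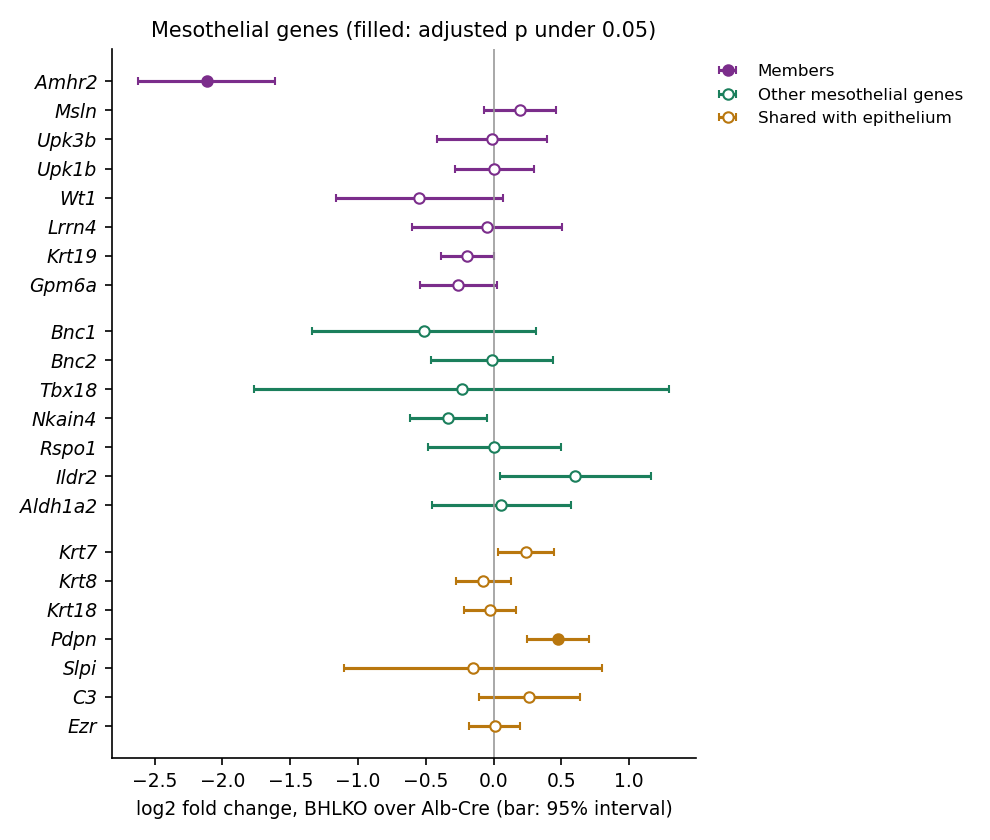
Log2 fold change of BHLKO against Alb-Cre lung (horizontal axis) with 95% intervals for the members, 7 other mesothelial genes and 7 genes shared with epithelium, from the edgeR fit across all tested genes. Filled points have an edgeR adjusted p under 0.05. The Amhr2 interval runs from -2.62 to -1.61, and the intervals of the other 7 members reach no lower than -1.17.

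Per kilobase of exon, the scale on which different genes can be compared, Amhr2 changed its place among the members. In BHLKO lung the levels were 166 CPM per kb for Krt19, 49.6 for Msln, 23.3 for Upk1b, 7.78 for Gpm6a, 4.78 for Upk3b, 3.39 for Lrrn4, 2.07 ± 0.753 for Amhr2 and 0.922 for Wt1. In Alb-Cre lung they were 189 CPM per kb for Krt19, 43.3 for Msln, 23.2 for Upk1b, 9.33 for Gpm6a, 9.09 ± 0.789 for Amhr2, 4.82 for Upk3b, 3.50 for Lrrn4 and 1.34 for Wt1. Amhr2 was rank 7 of 8 in BHLKO and rank 5 in Alb-Cre lung. Neighbours in the order overlapped in some places: Amhr2 with both Lrrn4 and Wt1 in BHLKO lung, Amhr2 with Gpm6a in Alb-Cre lung, and Upk3b with Lrrn4 in both. Exon lengths were taken over all annotated isoforms, so the level of a gene with long rare isoforms is understated.

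The 7 other members were averaged on the log2 CPM scale to give a mesothelial level for each library. It was 5.16, 5.00, 5.42 and 4.92 in BHLKO libraries 2, 3, 4 and 5, against 5.44, 5.11, 5.45 and 4.96 in Alb-Cre libraries 1, 2, 4 and 5. The groups overlapped, with means of 5.12 ± 0.22 in BHLKO and 5.24 ± 0.25 in Alb-Cre lung (SD, n = 4 each), a difference of -0.11 that is smaller than either SD and was 0.09 without Alb-Cre libraries 1 and 4. The CPM of Amhr2 as a share of the geometric mean CPM of the 7 was 16.3, 15.2, 5.40 and 12.5% in BHLKO, against 40.3, 59.7, 39.0 and 57.7% in Alb-Cre lung. The groups stayed apart on this scale, where the difference of the group means of log2 values was -2.09. The -2.12 of Amhr2 alone came from the edgeR fit, so these values are not on the same measure. As Amhr2 was chosen for its fall, the separation is a description. BHLKO library 4 held the most mesothelial RNA of its group and the least Amhr2. Alb-Cre libraries 1 and 4 had the highest mesothelial levels of all 8 and also the highest adipocyte sums. Without these 2 libraries the log2 difference of Amhr2 per mesothelial level was -2.37.

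**Figure D3:**
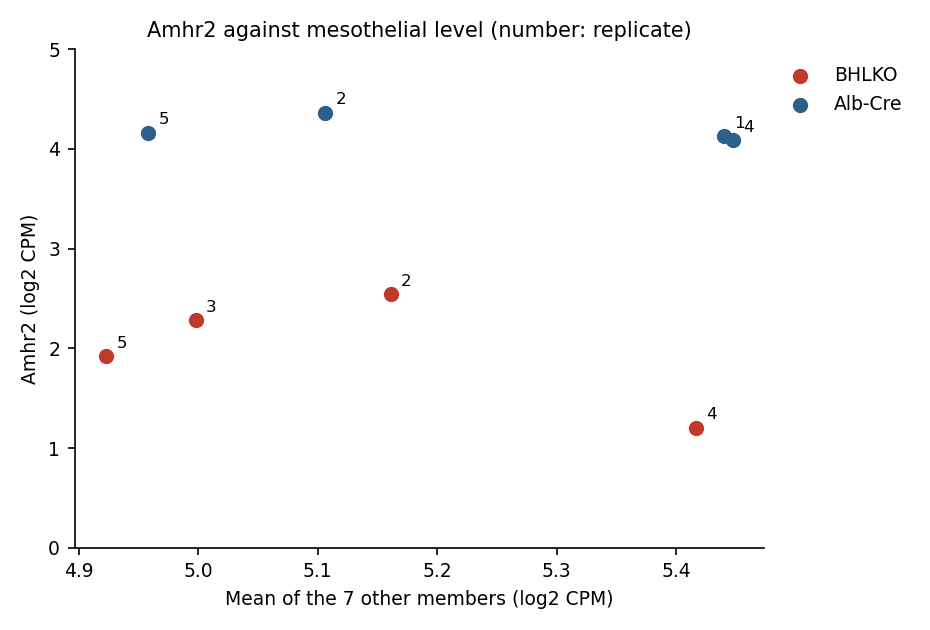
Amhr2 in log2 CPM (vertical axis) against the mean log2 CPM of the 7 other members (horizontal axis, not starting at 0) in each library, numbered by replicate. Both groups span nearly the same mesothelial levels, 4.92 to 5.42 in BHLKO and 4.96 to 5.45 in Alb-Cre lung, while their Amhr2 levels form 2 separate bands.

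A wider list of 10 mesothelial genes was examined for the same question. Of these, 8 were listed and 7 tested, and edgeR called 0, against 2.26% of all tested genes. DESeq2 and limma-voom also called 0. In edgeR 2180 of all 13517 tested genes had an unadjusted p under 0.05, and so had 2 of these 7. Their median log2 fold change was -0.01 and their range -0.51 to 0.60. Nkain4, a membrane protein of the sodium pump interacting family, averaged 88.8 ± 12.6 CPM in BHLKO and 112 ± 20.6 CPM in Alb-Cre lung (log2 fold change -0.33 ± 0.13, edgeR adjusted p = 0.231). Ildr2, a membrane protein of the immunoglobulin type, averaged 6.93 ± 1.86 CPM in BHLKO and 4.53 ± 0.962 CPM in Alb-Cre lung (0.60 ± 0.26, edgeR adjusted p = 0.265). These 2 had the smallest p of the list and lay on opposite sides of 0. Bnc1, a zinc-finger factor, averaged 3.16 ± 1.04 CPM in BHLKO and 4.46 ± 2.55 CPM in Alb-Cre lung (-0.51 ± 0.39, edgeR adjusted p = 0.56). Its highest Alb-Cre values, 8.03 and 4.46 CPM, were in the fat-rich libraries 1 and 4. Alb-Cre libraries 2 and 5, at 3.18 and 2.19 CPM, were near the BHLKO values of 2.20 to 4.63 CPM. Rspo1, which strengthens Wnt signals, averaged 45.4 CPM in BHLKO and 45 CPM in Alb-Cre lung, and Aldh1a2, which makes retinoic acid, averaged 38.3 CPM in BHLKO and 36.6 CPM in Alb-Cre lung. The summed level of the list ran from 172 to 221 CPM in BHLKO and from 160 to 267 CPM in Alb-Cre lung. Upk3bl had 1 read in all BHLKO libraries and 8 in the Alb-Cre libraries and stayed under the filter on low counts, while Muc16 and Calb2 were not analysed here.

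Genes that mesothelium shares with other lung epithelium gave 1 rise among 7 tested, against 1.04% of all tested genes called higher. The gene was Pdpn, podoplanin, a surface glycoprotein of mesothelium, alveolar type 1 cells and lymphatic vessels. It had 46.9, 44.0, 50.4 and 43.7 CPM in BHLKO, against 32.5, 29.5, 36.1 and 34.6 CPM in Alb-Cre lung. The groups did not overlap, as in 9.62% of all tested genes. The means were 46.3 ± 3.14 CPM in BHLKO and 33.2 ± 2.87 CPM in Alb-Cre lung (SD, n = 4 each), a log2 fold change of 0.48 ± 0.11 (edgeR adjusted p = 0.0298). The call rests on most of the libraries, since it was kept in 3 of the 8 fits that leave out 1 library and was lost without Alb-Cre 1 or 2 or BHLKO 2, 4 or 5, with an edgeR adjusted p of up to 0.0960. Krt7, a keratin, averaged 854 ± 35.7 CPM in BHLKO and 724 ± 96.1 CPM in Alb-Cre lung (0.24 ± 0.10, edgeR adjusted p = 0.232), and Krt8, Krt18, Slpi, C3 and Ezr did not pass either. Of 7 markers of alveolar type 1 cells, which also make podoplanin, Rtkn2 rose and Akap5 fell. The background was 2.26% of all tested genes called in either direction. Aqp5 was lower in every BHLKO library but was not called (-0.38 ± 0.11, edgeR adjusted p = 0.0878). The groups did not overlap for 3 of the 7, against 9.62% of all tested genes. An unadjusted p under 0.05 in edgeR was found for 3 of the 7, beside 2180 of all 13517 tested genes. The Rtkn2 call was kept in all 8 fits that leave out 1 library. The Akap5 call (edgeR adjusted p = 0.0361) was kept in 2 of those 8, with an edgeR adjusted p of up to 0.114, lost in the 6 without Alb-Cre 1, 2 or 4 or BHLKO 2, 3 or 5, and also lost with limma-voom. The summed level of the 7 ran from 8413 to 8691 CPM in BHLKO and from 7413 to 8777 CPM in Alb-Cre lung. The part of these cells in the Pdpn values was not tested.

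The genes that act with AMHR2 were examined from ligand to target. Amh, which encodes the hormone, was not analysed here. Of the 12 other genes, all tested, 1 rose and 0 fell, 5 had an unadjusted p under 0.05 in edgeR, and the median log2 fold change was 0.17. The background for a rise was 1.04% of tested genes, and 2180 of all 13517 tested genes had an unadjusted p under 0.05 in edgeR. The 3 type I receptors that pair with AMHR2 did not pass: Acvr1 averaged 34.4 CPM in BHLKO and 30.2 CPM in Alb-Cre lung, Bmpr1a averaged 46.9 ± 2.44 CPM in BHLKO and 41 ± 5.4 CPM in Alb-Cre lung, and Bmpr1b averaged 1.32 CPM in BHLKO and 1.3 CPM in Alb-Cre lung. Among the signal carriers, Smad5 averaged 88.2 ± 3.3 CPM in BHLKO and 97.1 ± 3.16 CPM in Alb-Cre lung. Its groups did not overlap, as in 4.99% of all tested genes for a lower BHLKO group. The log2 fold change of -0.14 missed the threshold (edgeR adjusted p = 0.437). Of the 12 genes, 2 had groups that did not overlap, against 9.62% of all tested genes in either direction.

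The gene that rose was Smad6, which encodes an inhibitor of the pathway that BMP signals themselves induce. It had 620, 442, 505 and 593 CPM in BHLKO, against 263, 336, 249 and 396 CPM in Alb-Cre lung. Every BHLKO library was above every Alb-Cre library, as in 4.63% of all tested genes. The means were 540 ± 81.5 CPM in BHLKO and 311 ± 68.3 CPM in Alb-Cre lung (SD, n = 4 each), 1.74-fold higher in BHLKO on the fitted scale, with a log2 fold change of 0.80 ± 0.15 (edgeR adjusted p = 0.0163). The call was lost without Alb-Cre 1, BHLKO 2 or BHLKO 5, with an edgeR adjusted p of up to 0.0616.

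The remaining targets, which BMP signals and AMH can both induce, did not pass the test. Id1 averaged 749 ± 153 CPM in BHLKO and 515 ± 97.1 CPM in Alb-Cre lung (0.54 ± 0.17, edgeR adjusted p = 0.135), and Id3 averaged 902 ± 165 CPM in BHLKO and 712 ± 101 CPM in Alb-Cre lung (0.34 ± 0.13, edgeR adjusted p = 0.219). Id2 averaged 133 ± 14.9 CPM in BHLKO and 159 ± 21.6 CPM in Alb-Cre lung (-0.26 ± 0.11, edgeR adjusted p = 0.254). Smad7, the other inhibitory SMAD gene, averaged 163 ± 27.8 CPM in BHLKO and 131 ± 25.3 CPM in Alb-Cre lung (0.32 ± 0.15, edgeR adjusted p = 0.302). None of these genes is specific to AMHR2, because all answer to BMP receptors in many lung cells. Of the other 4 type II receptor genes tested, Bmpr2, Acvr2a, Acvr2b and Tgfbr2, edgeR, DESeq2 and limma-voom called 0, with 0 at an unadjusted p under 0.05 in edgeR.

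**Figure D4:**
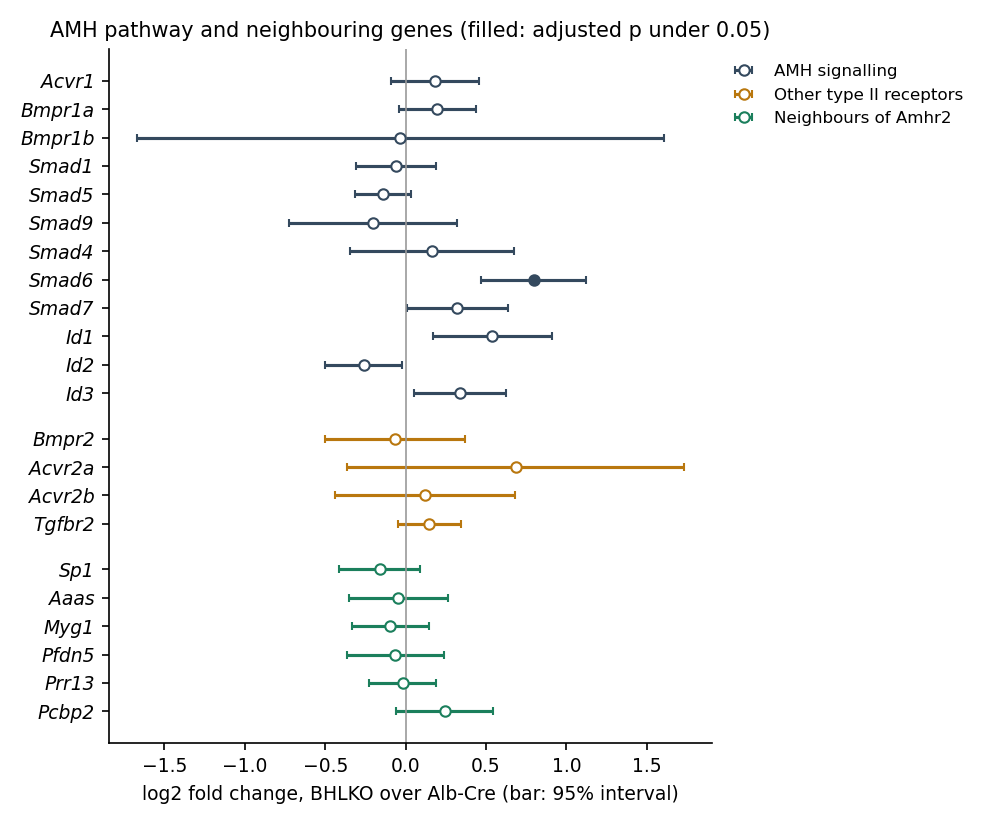
Log2 fold change of BHLKO against Alb-Cre lung (horizontal axis) with 95% intervals for the 12 tested genes of anti-Müllerian hormone signalling, 4 other type II receptor genes and the 6 tested neighbours of Amhr2. Smad6, at 0.80, is the only filled point, the mark of an edgeR adjusted p under 0.05.

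Genes whose pattern over the 8 libraries was most like that of Amhr2 were ranked by the root mean square difference of centred log2 CPM, over 13248 genes. The nearest were Sox11 at 0.43, Cd8a at 0.44, Arl5c at 0.45, Nkx2-1 at 0.45, Mcm6 at 0.46 and Lpar2 at 0.50, where a gene with the same value in every library would be at 1.16. They include developmental and lung epithelial transcription factors (Sox11, Nkx2-1), a T cell surface gene (Cd8a) and a subunit of the replicative helicase (Mcm6), and none is a mesothelial marker of the lists. Sox11 averaged 4.38 ± 0.769 CPM in BHLKO and 33.7 ± 6.56 CPM in Alb-Cre lung, and Nkx2-1 averaged 60.6 ± 6.24 CPM in BHLKO and 198 ± 10.4 CPM in Alb-Cre lung. Their likeness to Amhr2 rests mostly on the step between the groups, which the ranking selects. No other member was among the nearest. Gpm6a at rank 1720 (1.05), Wt1 at 2465 (1.08) and Krt19 at 2740 (1.09) were somewhat nearer than a flat gene. Upk1b at 7461 (1.20), Upk3b at 8222 (1.22), Lrrn4 at 9082 (1.25) and Msln at 10469 (1.30) were farther than it. With each group centred on its own mean, only the spread within groups counts. The nearest were then Bid at 0.10, Os9 at 0.11, Tmem273, Panx1, Ankrd9 and Fam151b. The other members were at ranks from 4848 (Gpm6a, 0.39) to 11836 (Lrrn4, 0.67). All of them were farther from Amhr2 than a gene flat within groups, which would be at 0.36.

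**Figure D5:**
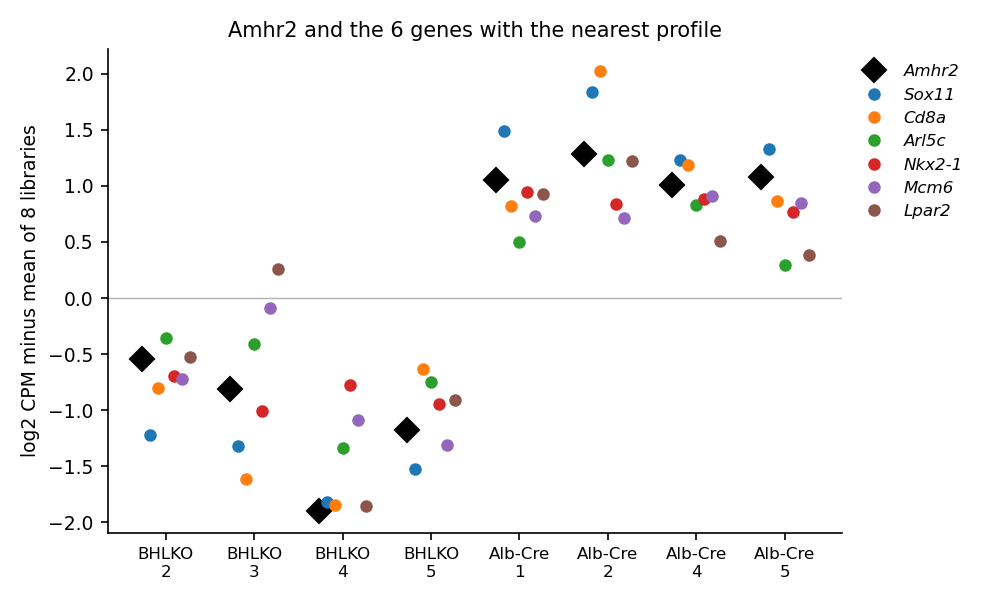
Log2 CPM minus the mean of the 8 libraries (vertical axis) for Amhr2 (diamonds) and the 6 genes with the nearest profile (circles) in each library. All 7 genes are above 0 in the 4 Alb-Cre libraries, and in BHLKO lung all lie below 0 except Lpar2 in library 3.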

How the data were processed

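Whole-lung RNA for 8 libraries, 4 BHLKO and 4 Alb-Cre, was extracted with a phenol-based reagent, per the labels' protocols. The submitters' processing notes name STAR 2.5.2b, cutadapt, DESeq2, HTSeq and build mm10, without roles. Library strandedness and annotation: not given in the sources used here. The authors deposited whole-number counts per gene and library, with columns of normalized signal beside them; the deposited signal equals the counts divided by DESeq2 size factors and was not tested. Counts were tested in edgeR 4.0.16 (R 4.3.3) with TMM scaling, filterByExpr and a robust quasi-likelihood test across 13517 genes, Benjamini-Hochberg threshold 0.05. CPM use TMM library sizes, and log2 CPM a prior count of 0.5. Positions and exon lengths are from GENCODE M21 (mm10). Alternatives were DESeq2 1.42.0, limma-voom (limma 3.58.1), other scalings, no filter, the replicate block and leaving out libraries. The script was checked on simulated data. Members and gene lists were chosen with earlier results of these data known. Genes named are the members, listed genes that were called or among the 3 smallest p of a list, the tested neighbours of Amhr2 and the 6 nearest profiles of mean at least 1 CPM by either centring; others named were chosen after their values were seen. Reads carry no molecular identifiers. The Poisson intervals of read counts cover counting error only. The intervals of log2 fold changes come from the edgeR fit and also reflect library-to-library spread.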

Additional observations from a re-analysis of the deposited data

Results flagged for a closer look

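Among 80 groups of 4 libraries examined, 2 held a library far from the other 3, or 2.5%, where chance gives about 1 in 20. The 80 groups did not take in all genes named here, so this share does not describe the markers of other tissues. Among those, Krt5 was at 20.2 CPM in Alb-Cre library 4, against 0.97 to 1.85 CPM in the other 3 Alb-Cre libraries. Des was at 700 CPM in BHLKO library 5, against 529 to 538 CPM in the other 3 BHLKO libraries. Gpm6a was at 24.2 CPM in Alb-Cre library 5, below the 31.7 to 32.1 CPM of the other 3 Alb-Cre libraries and inside the BHLKO range. Krt7 was at 868 CPM in Alb-Cre library 5, above the 668 to 687 CPM of the other 3 Alb-Cre libraries.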

How the results depend on the processing

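Amhr2 kept its direction and its call in all 15 alternatives, with log2 fold changes between -2.32 and -1.92. These refits reuse the counts on which Amhr2 was selected, so they describe dependence on processing and do not test its fall. The 7 other members were never called. The number of called genes, 306, was 692 with DESeq2, 160 with the replicate block, 131 to 520 when 1 library was left out and 62 without Alb-Cre libraries 1 and 4, an alternative chosen after seeing the data. The block leaves Alb-Cre library 1 and BHLKO library 3 out of the difference, since neither shares its number with the other group. Replicate numbers shared by the groups gave correlations of 0.0034 to 0.038, and only number 2 matched its own number best. With so few libraries these values cannot decide whether samples of the same number were paired. Called AMH signalling genes, 1, were 2 with DESeq2 (Smad6 and Id1), 0 to 2 when 1 library was left out and 0 without both fat-rich libraries. Called genes shared with epithelium, 1, were 0 with the replicate block, 0 without both fat-rich libraries and 0 to 2 when 1 library was left out, the 2 being Pdpn and Krt7 without Alb-Cre library 5. Log2 fold changes near 0 changed sign: Upk1b was -0.0078 with upper quartile scaling, -0.0023 with limma-voom and -0.10 to 0.11 with 1 library left out. Upk3b was 0.053 with limma-voom, 0.22 with the replicate block, 0.28 without both fat-rich libraries and -0.18 to 0.17 with 1 left out. Lrrn4 was 0.26 without both and -0.33 to 0.13 with 1 left out, and Wt1 was 0.023 without both, where the mean log2 difference of the 7 members was 0.09 in place of -0.11. Apart from the use of fewer libraries, the cause was not tested. The 22 to 71 Amhr2 reads per BHLKO library limit the precision of its level there.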
